A study of Rattus norvegicus with 10 samples.

Results

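Proteasome subunits, their activators, an inhibitor and their assembly factors were measured in rat liver as 43 genes of the 14217 represented on the arrays. The members were all genes whose array annotation gave a probe set 1 symbol beginning with Psma, Psmb, Psmc, Psmd, Psme, Psmf or Psmg, without the immune subunits Psmb8, Psmb9 and Psmb10, and 57 probe sets met this. Each gene was represented by its brightest probe set over all 10 arrays. The core particle was covered by 13 members (7 of the alpha ring and 6 of the beta ring) and the regulatory particle by 17 (6 ATPases and 3 other proteins of the base, and 8 of the lid). The remaining 13 were 3 activators, 1 inhibitor, 7 assembly factors and 2 proteins, Psmc3ip and Psme3ip1, that are named after a subunit as binding partners of it. Psmb6 and Psme3 had no probe set of their own, since the annotation assigned theirs to several genes, and they are not analysed here.

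The samples were livers of Harlan Sprague Dawley rats, with 1 array for each animal. In the HMB group 5 rats ate feed with 10000 ppm HMB (2-hydroxy-4-methoxybenzophenone, or oxybenzone, an ultraviolet filter of sunscreens) for 13 weeks, and 5 Control rats ate feed with 0 ppm over the same 13 weeks, both on an NTP-2000 diet. The array called HMB 1 here carried a dose label of 0 ppm beside an HMB title and chemical label, and was kept in the HMB group. Rats were kept 5 to a cage, and no label gives sex, age or cage, so a cage effect and HMB cannot be told apart if each group was 1 cage. Hepatocyte markers such as Alb, at 14.57 in HMB and 14.61 in Control livers, were bright, and 0 of 40 measured markers of liver and blood cell types passed the test, with 6 at an unadjusted p under 0.05. Over all genes 1.72% passed and 24.9% had such a p. Of the 40 markers 21 were above 0 and 19 below. All 4 erythroid markers were higher in HMB, with a median log2 difference of 0.35. Of these, Slc4a1, dim at 3.49 in HMB and 3.09 in Control livers, did not overlap between groups (limma, Benjamini-Hochberg adjusted p = 0.0728). All signals are log2 units of the deposited values, and a level on 1 probe set is not comparable with that on another.

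The proteasome is the protease that degrades proteins tagged with ubiquitin in the cytosol and nucleus. Its core particle is a barrel of stacked rings, in which outer alpha rings gate the entrance and inner beta rings carry the active sites of Psmb5, Psmb6 and Psmb7. The regulatory particle caps the barrel, its lid removing ubiquitin and its base of ATPases unfolding the substrate. Subunit genes are known to be raised together by the transcription factor Nfe2l1 when proteasome activity falls short, and interferon exchanges the catalytic subunits for Psmb8, Psmb9 and Psmb10.

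The comparison asked whether proteasome transcripts differed in liver after 13 weeks of HMB feed, and whether core and regulatory particle differed alike. None of the 43 members passed the test, 0 higher and 0 lower (limma, smallest Benjamini-Hochberg adjusted p = 0.155 over all 14217 genes). Over all genes 1.72% passed an adjusted p of 0.05, 0.76% higher and 0.957% lower in HMB livers, and over single probe sets, where again no probe set of a member passed, 1.7% did. This share depended strongly on single animals. The 244 genes called became 0 without HMB 2, Control 2, Control 3 or Control 5, and 1 without HMB 4 or HMB 5. They became 15 without Control 4, 157 without HMB 3, 353 without HMB 1 and 1014 without Control 1. Genes at an unadjusted p under 0.05 numbered between 2772 and 4206 in these fits, against 3538 with all animals. At an unadjusted p under 0.05 there were 2 members, Psmc6 and Psme4, against 24.9% of all genes and 20.6% of the brightest 25% of genes. The estimated log2 differences ran from -0.20 for Psmd5 to 0.18 for Psmc6, with standard errors between 0.057 and 0.12.

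The 95% intervals bounded these differences closely. For 43 of 43 members the interval on the probe set used lay within 1.5-fold in both directions, which held for 86.1% of all genes and for 91.4% of the brightest 25%. For 26 members it lay within 1.2-fold, against 21.9% of all genes and 39.4% of the brightest 25%. These are intervals per gene, not adjusted for the number of genes. The SD within groups had a median of 0.099 over members, against 0.16 over all genes and 0.12 over the brightest 25% of them, which held 40 of the 43 members. The SD was larger in HMB than in Control livers for 27 of 43 members, against 51.5% of all genes and 60% of the brightest 25%.

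**Figure D1:**
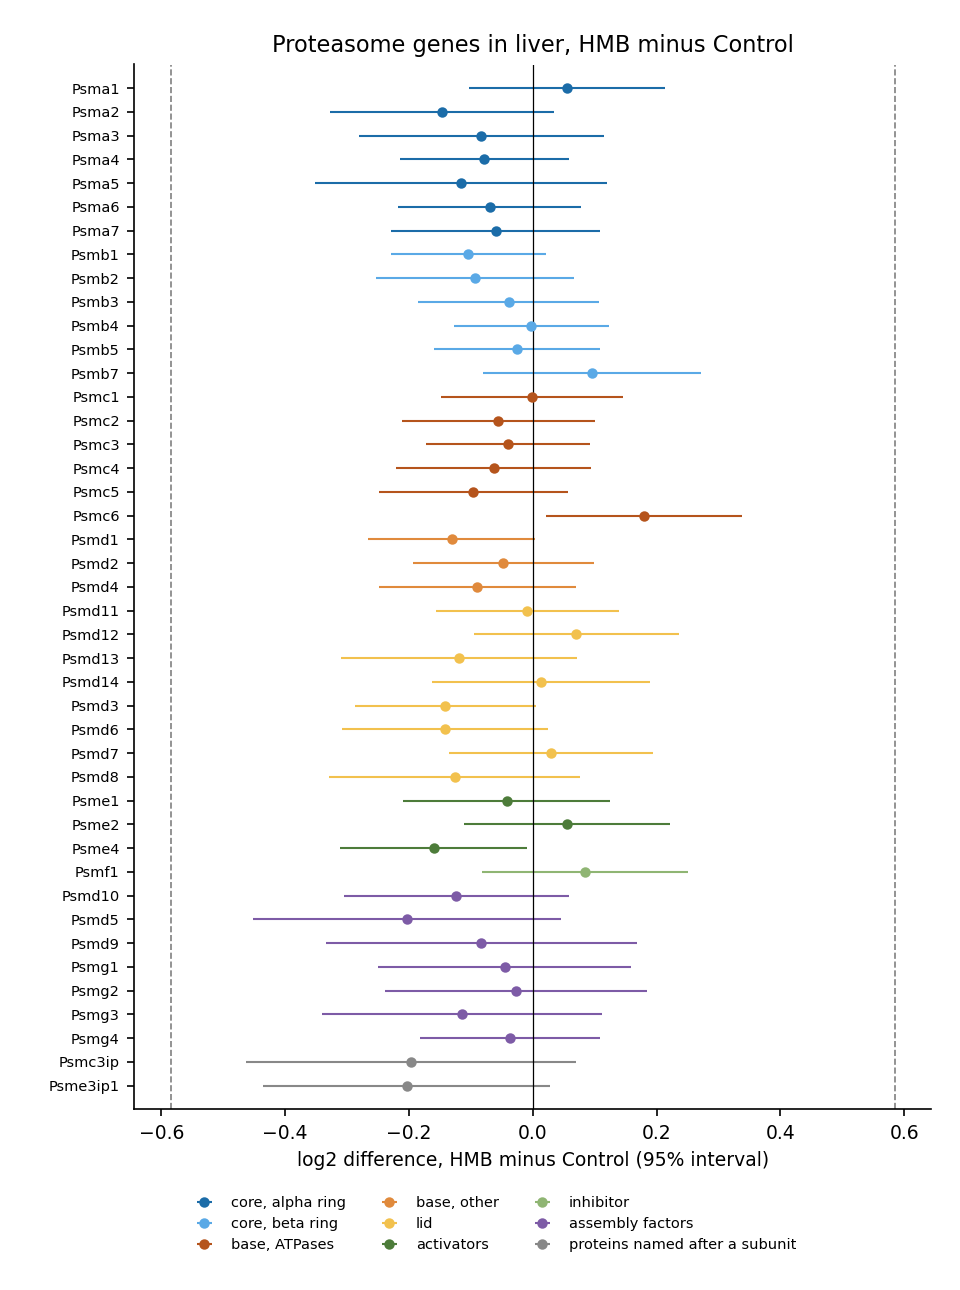
Estimated log2 difference, HMB minus Control, of 43 proteasome genes (points) with 95% intervals from limma (bars; n = 5 animals per group), coloured and ordered by role. Dashed lines mark 1.5-fold in either direction. All 43 intervals lie between the dashed lines, and 35 of the 43 points lie left of 0.

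Most of the small differences lay below 0. The log2 difference was negative in 35 of 43 members, with a median of -0.063, where 53.5% of all genes were below 0 and the median was -0.018. Among the brightest 25% of genes 71.2% were below 0, with a median of -0.072. After cyclic loess normalization between arrays 17 of the 43 members were below 0 and the median was 0.014, and after quantile normalization 21 were below 0. The direction of the set as a whole was therefore not the same under every scaling.

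In the alpha ring, 0 of 7 members passed the test and 6 were below 0, with a median log2 difference of -0.078. Psma2, an alpha-ring subunit, had signals of 9.80, 9.68, 9.46, 9.53 and 9.43 in HMB 1 to 5, against 9.77, 9.76, 9.76, 9.63 and 9.72 in Control 1 to 5. HMB 1 lay above every Control while HMB 3 to 5 lay below every Control. Its log2 difference was -0.15 ± 0.083 (SE, n = 5 per group, limma adjusted p = 0.287). Psma4, another subunit of that ring, averaged 9.78 ± 0.079 in HMB and 9.86 ± 0.017 in Control livers (SD, n = 5 each), with a log2 difference of -0.078 (limma adjusted p = 0.448). Psma5 varied most among HMB animals of the ring, between 9.68 in HMB 4 and 10.29 in HMB 1, while its Control values lay between 9.95 and 10.17.

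In the beta ring, 0 of 6 members passed and 5 were below 0, with a median log2 difference of -0.032. Psmb5 carries the chymotrypsin-like active site, and its signals were 10.96, 11.005, 10.999, 10.92 and 10.94 in HMB livers, against 11.06, 10.96, 11.05, 10.92 and 10.96 in Control livers. Control 1 and Control 3 lay above every HMB animal and the other 3 Controls within the HMB range, and the log2 difference was -0.026, with a 95% interval from -0.16 to 0.11 (limma adjusted p = 0.819). Other probe sets of Psmb5 were dim, with group means from 2.75 to 3.54. Their log2 differences were 0.28 and 0.23, uncalled over all probe sets (limma adjusted p = 0.125 and 0.274). Psmb7, which carries the trypsin-like site, had 8.22, 8.06, 8.38, 8.33 and 8.38 in HMB livers, against 8.26, 8.16, 8.27, 8.12 and 8.08 in Control livers. HMB 3 to 5 were above every Control and HMB 2 was below every Control, and the log2 difference was 0.095, with an interval from -0.081 to 0.27 (limma adjusted p = 0.472). Psmb2, a beta subunit with no active site, had a log2 difference of -0.094 (limma adjusted p = 0.435).

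Psmb1, a beta subunit without an active site, was among the 4 members whose groups did not overlap. Its signals were 10.35, 10.35, 10.27, 10.31 and 10.31 in HMB livers, against 10.41, 10.47, 10.40, 10.43 and 10.41 in Control livers. All 5 HMB animals were below all 5 Controls, yet the gap was small, a log2 difference of -0.10 ± 0.058 or 0.93-fold (SE, n = 5 per group, limma adjusted p = 0.278). Psmd1, a large scaffold protein of the base, had 8.70, 8.63, 8.67, 8.66 and 8.54 in HMB livers, against 8.76, 8.77, 8.76, 8.73 and 8.84 in Control livers. The log2 difference of Psmd1 was -0.13 ± 0.062 (SE, limma adjusted p = 0.212). Psmd3, a lid subunit, had 7.74, 7.81, 7.61, 7.83 and 7.82 in HMB livers, against 7.85, 7.87, 7.90, 7.93 and 7.97 in Control livers. HMB 4 came within 0.02 of the lowest Control, and the log2 difference of Psmd3 was -0.14 ± 0.067 (SE, limma adjusted p = 0.213). Psme4, also called PA200, an activator that caps the core particle in place of the regulatory particle, had 8.98, 9.001, 8.80, 9.03 and 8.94 in HMB livers, against 9.08, 9.07, 9.24, 9.09 and 9.08 in Control livers. Its log2 difference was -0.16 ± 0.070 (SE, limma adjusted p = 0.179, unadjusted p = 0.0398). On its other probe sets the groups overlapped, with log2 differences of -0.060 and -0.17 (limma adjusted p = 0.691 and 0.475 over all probe sets), and on the second of these HMB 1 at 8.30 lay above every Control. These 4 were all lower in HMB, and over all genes 3.48% lay wholly below and 2.64% wholly above Control, 6.12% in all. None of the 4 passed the test.

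The promoters of these 4 genes are shown because they are the members whose groups did not overlap on the probe set used. They were taken from RefSeq on build GRCr8, 250 bases before to 50 bases after the transcription start that the table gives, 5′ to 3′ on the gene's strand. Capitals mark TGACNNNGC on either strand, the core of the antioxidant response element to which Nfe2l1 and Nfe2l2 bind as a known property.
Psmb1 (chr1:65134721-65135020, minus strand): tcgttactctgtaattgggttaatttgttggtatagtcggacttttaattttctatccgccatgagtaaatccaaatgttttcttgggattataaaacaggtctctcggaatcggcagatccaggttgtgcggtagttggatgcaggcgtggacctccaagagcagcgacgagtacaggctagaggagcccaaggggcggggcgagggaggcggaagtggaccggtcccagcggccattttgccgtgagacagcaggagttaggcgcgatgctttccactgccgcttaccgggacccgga
Psmd1 (chr9:94157721-94158020, plus strand): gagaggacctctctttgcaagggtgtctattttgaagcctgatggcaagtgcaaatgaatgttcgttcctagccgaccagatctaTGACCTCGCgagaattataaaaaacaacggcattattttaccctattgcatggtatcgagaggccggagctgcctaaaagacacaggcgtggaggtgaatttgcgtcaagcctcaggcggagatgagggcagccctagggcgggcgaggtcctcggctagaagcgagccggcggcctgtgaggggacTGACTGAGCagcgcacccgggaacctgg
Psmd3 (chr10:84139688-84139987, plus strand): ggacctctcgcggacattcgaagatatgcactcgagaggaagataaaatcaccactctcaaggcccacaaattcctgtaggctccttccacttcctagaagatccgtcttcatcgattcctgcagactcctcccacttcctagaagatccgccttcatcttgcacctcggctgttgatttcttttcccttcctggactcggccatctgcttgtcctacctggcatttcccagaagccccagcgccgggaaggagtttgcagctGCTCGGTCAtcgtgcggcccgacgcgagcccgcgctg
Psme4 (chr14:108706393-108706692, plus strand): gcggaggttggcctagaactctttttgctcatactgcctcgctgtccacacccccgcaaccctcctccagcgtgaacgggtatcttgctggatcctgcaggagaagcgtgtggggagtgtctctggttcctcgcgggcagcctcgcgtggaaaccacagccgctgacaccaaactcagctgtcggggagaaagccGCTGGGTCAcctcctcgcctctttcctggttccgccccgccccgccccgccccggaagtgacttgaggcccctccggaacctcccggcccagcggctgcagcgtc
The motif was found in Psmd1, in Psmd3 and in Psme4, and not in these letters of Psmb1. In Psmd1 it began 165 bases before the start and again 22 bases after it, in Psmd3 it began 13 bases after the start, and in Psme4 55 bases before it.

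Of the 43 members, 39 had a promoter in that table, and 7 of these (17.9%) held TGACNNNGC. The share was 14.1% among 13242 promoters of tested genes and 12.1% among all 33469. The other 4 members with the motif were Psmb2, Psma3, Psmd9 and Psmb5. CCAAT, the box bound by NF-Y, was found on either strand in 20 of 39 member promoters, or 51.3%, against 36.8% of tested genes. It was present in 9 of 12 core promoters and in 5 of 14 regulatory particle promoters. GGGCGG, the GC box, was found in 28 of 39, or 71.8%, against 55.7% of tested genes. These are matches of letters, which overlap in part where motifs adjoin, and none was measured as a binding site.

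Among the base ATPases, 0 of 6 passed and 5 were below 0. Psmc6, an ATPase of the base, showed the largest positive difference of any member. Its signals were 9.52, 9.60, 9.31, 9.44 and 9.52 in HMB livers, against 9.31, 9.39, 9.26, 9.22 and 9.29 in Control livers. HMB 3 lay within the Control range and the other 4 HMB animals lay above it, a log2 difference of 0.18 ± 0.072 or 1.13-fold (SE, n = 5 per group, limma adjusted p = 0.155, unadjusted p = 0.0287). Of its other probe sets, 1 had a log2 difference of 0.19 and 1 of -0.070, and neither was called over all probe sets (limma adjusted p = 0.216 and 0.675). Psmc5 had the next smallest p of the ATPases, with a log2 difference of -0.096 (limma adjusted p = 0.403), and the Psmc1 difference was -0.0018.

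The 3 non-ATPase proteins of the base were all below 0. Besides Psmd1, the ubiquitin receptor Psmd4 averaged 8.38 ± 0.093 in HMB and 8.47 ± 0.090 in Control livers (SD, n = 5 each), a log2 difference of -0.090 (limma adjusted p = 0.453). In the lid 0 of 8 passed and 5 were below 0. Psmd6, a lid subunit, had 9.04, 9.07, 8.87, 8.76 and 8.93 in HMB livers, against 8.999, 9.15, 9.06, 9.04 and 9.14 in Control livers. HMB 1 and HMB 2 lay inside the Control range and HMB 3 to 5 below it, with a log2 difference of -0.14 (limma adjusted p = 0.266). Psmd14, the lid enzyme that cuts ubiquitin chains from substrates, had a log2 difference of 0.013 (limma adjusted p = 0.935). Psmd7, its partner in the lid, had 0.029, but its dimmer second probe set had -0.24, uncalled over all probe sets (limma adjusted p = 0.169).

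Core and regulatory particle were then set side by side. The core members had a median log2 difference of -0.070, with 11 of 13 below 0, and the regulatory members one of -0.055, with 13 of 17 below 0. For each animal the deviations from every gene's mean over the 10 arrays were averaged over the members of a particle. The core mean was 0.055, 0.0082, -0.051, -0.067 and -0.074 in HMB 1 to 5, against 0.016, 0.050, 0.033, -0.0062 and 0.036 in Control 1 to 5. The regulatory mean was 0.021, 0.034, -0.072, -0.040 and -0.057 in HMB 1 to 5, against -0.0061, 0.064, 0.044, -0.054 and 0.065 in Control 1 to 5. HMB 3 to 5 had the lowest core means of all animals, while HMB 1 and HMB 2 lay among or above the Controls. Control 4 was low in the regulatory mean, among HMB 3 to 5.

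Core minus regulatory averaged -0.0030 ± 0.028 in HMB and 0.0030 ± 0.031 in Control livers (SD, n = 5 each). The groups differed by -0.0061 on the log2 scale, less than the spread between animals in either group, and HMB values from -0.027 to 0.033 lay inside the Control range of -0.028 to 0.047. No test was run on this mean, because the members had been chosen with earlier results known. Across the settings run, 10 of them leaving out 1 animal each, it stayed between -0.030 and 0.017.

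**Figure D2:**
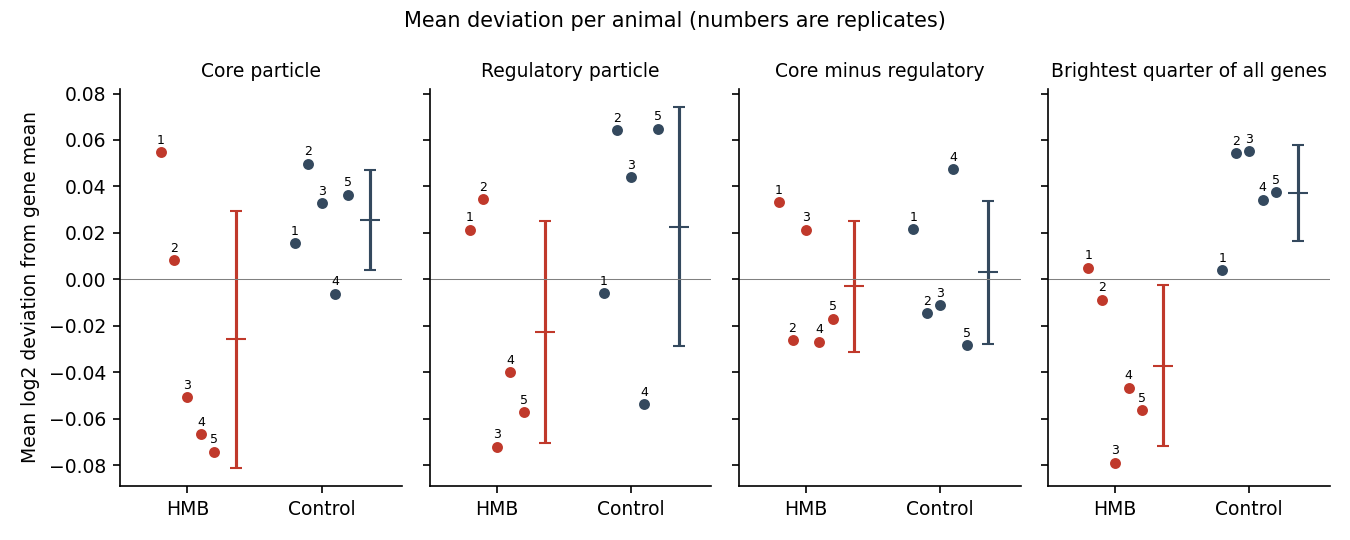
Mean log2 deviation per animal (points, numbered by replicate) over core members, over regulatory members, of core minus regulatory, and over the brightest 25% of all genes, with group mean and SD beside (bars, n = 5). HMB 3 to 5 lie lowest in the core panel, between -0.074 and -0.051, and the groups overlap in every panel. Over the brightest 25% of genes they overlap only in that HMB 1, at 0.0051, lies just above Control 1, at 0.0041.

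**Figure D3:**
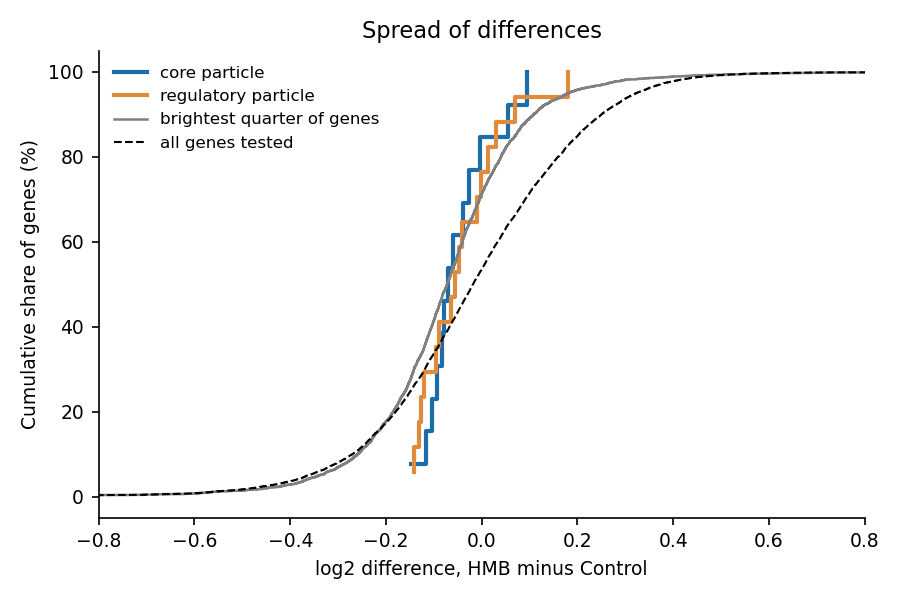
Cumulative share of genes (vertical axis, percent) against log2 difference, HMB minus Control, for 13 core members, 17 regulatory members, the brightest 25% of genes and all 14217 genes. Both particles span a narrow range, -0.15 to 0.18 over both, around medians of -0.070 and -0.055, next to a median of -0.072 for the brightest 25%.

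The HMB animals were not alike in these genes. In 20 of 43 members HMB 1 and HMB 2 both lay above HMB 3, HMB 4 and HMB 5, an ordering found in 16.4% of all genes and in 27.8% of the brightest 25% of genes. It held in 8 of 13 core and 6 of 17 regulatory members. The opposite ordering was found in 3 members, Psma3, Psmb7 and Psmd7, against 14.4% of all genes and 9.54% of the brightest 25%. The same animals were set apart by array measures. The 3′ minus 5′ signal of the GAPDH control was 1.31 and 1.38 in HMB 1 and HMB 2 and between 1.90 and 2.09 in HMB 3 to 5, against 1.38 to 1.77 in Control livers. The signal of the added poly-A controls minus that of the hybridization controls was -1.96 to -1.92 in HMB 1 and HMB 2 and -1.78 to -1.47 in HMB 3 to 5, against -2.19 to -1.90 in Control livers. The mean of the brightest 25% of genes was 0.0051 and -0.0087 in HMB 1 and HMB 2 and between -0.079 and -0.047 in HMB 3 to 5, against 0.0041 to 0.055 in Control livers. Without HMB 3 to 5 the median of all members was 0.0023, in a fit that called 0 of the 14217 genes. Without HMB 1 and HMB 2 it was -0.11, in a fit that called 704 genes, 0 of them members. The mean deviation over all members was 0.045 and 0.017 in HMB 1 and HMB 2, against -0.077 to -0.061 in HMB 3 to 5. The direction of both shifts therefore follows from these values and is no separate evidence. With the poly-A control signal as a covariate the median of all members was -0.014, in a fit that called 0 of the 14217 genes. In that fit 1914 of all genes had an unadjusted p under 0.05, against 3538 without the covariate. The part of RNA or labelling quality in the differences was not tested further.

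**Figure D4:**
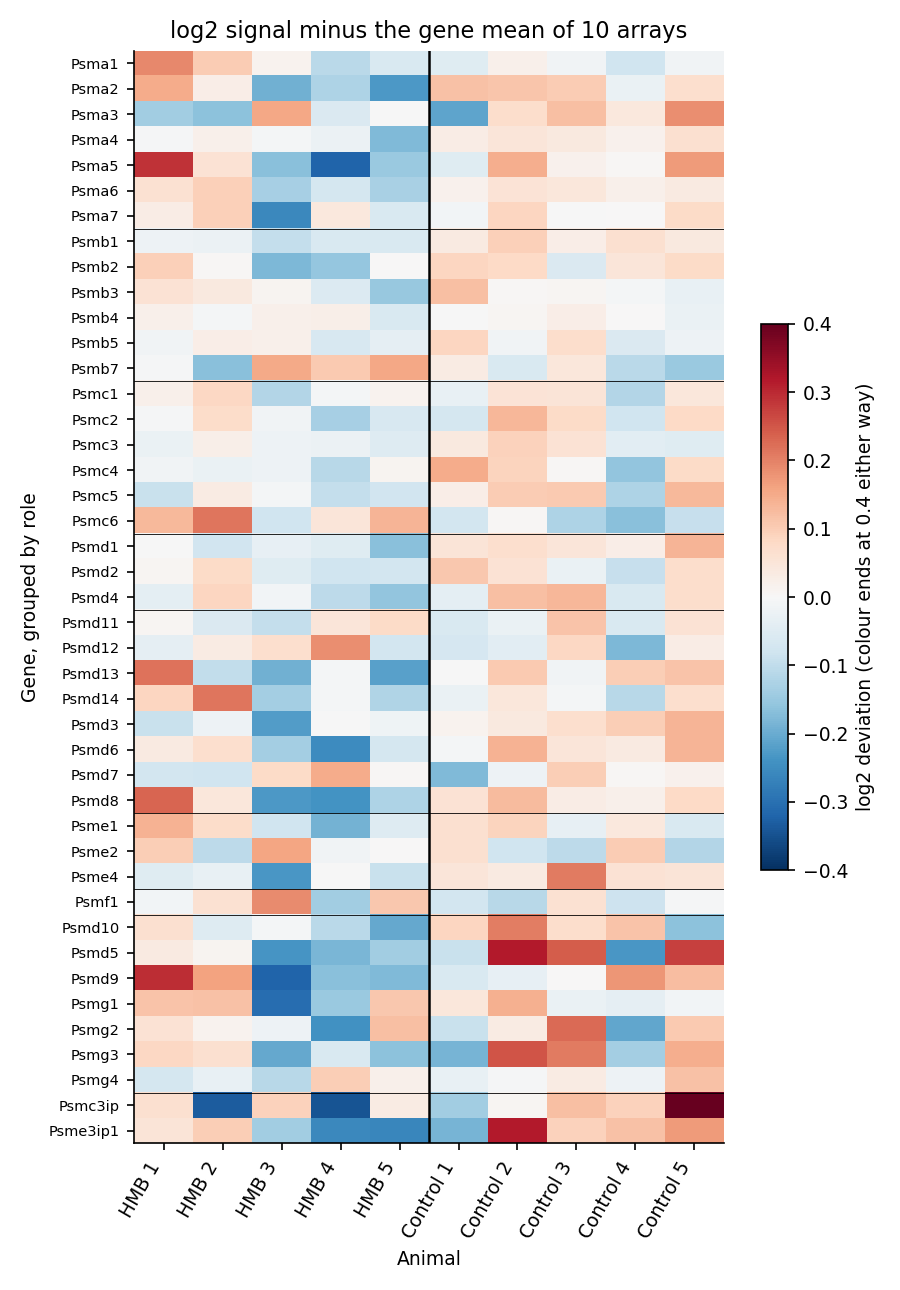
Deviation of each animal's log2 signal from the gene's mean over 10 arrays (colour, red above and blue below) for 43 members in rows, grouped by role, and animals in columns, HMB left of Control. Blue cells gather in HMB 3 to 5, while HMB 1 and HMB 2 lie above those 3 animals in 20 of the 43 rows.

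On the probe sets used, activators, inhibitor and assembly factors stayed within the same narrow bounds. Of the 3 activators, Psme1 and Psme2, which form the ring induced by interferon that opens the core, had log2 differences of -0.042 and 0.055 (limma adjusted p = 0.757 and 0.674). Psmf1, an inhibitor of the core particle also called PI31, had 9.18, 9.25, 9.38, 9.05 and 9.30 in HMB livers, against 9.12, 9.08, 9.25, 9.11 and 9.19 in Control livers. The groups overlapped, with a log2 difference of 0.084 (limma adjusted p = 0.502).

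All 7 assembly factors were below 0 and 0 passed. Psmd5, a chaperone of base assembly, had 8.15, 8.12, 7.88, 7.93 and 7.97 in HMB livers, against 8.02, 8.43, 8.35, 7.88 and 8.38 in Control livers. Control 1 and Control 4 lay within the HMB range and the other 3 Controls above it, and the log2 difference was -0.20 ± 0.11 (SE, n = 5 per group, limma adjusted p = 0.284). Psmd10, known as gankyrin, another base chaperone, had a log2 difference of -0.12 (limma adjusted p = 0.366). Psmg1 to Psmg4, which pair up to build the alpha ring, had differences between -0.11 and -0.027. Psmd9 had -0.083 on its bright probe set and 0.40 on a dimmer one (limma adjusted p = 0.124 over all probe sets).

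Psmc3ip and Psme3ip1 are named as binding partners and are not subunits of the particle. Psmc3ip acts in meiotic recombination, and its signal ran from 4.43 to 4.87 in HMB and from 4.64 to 5.18 in Control livers. Their log2 differences were -0.20 each (limma adjusted p = 0.328 and 0.252).

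The immune catalytic subunits, left out of the set, are given beside their constitutive counterparts. Psmb8 replaces Psmb5, and its signals were 8.68, 8.20, 8.58, 8.67 and 8.92 in HMB livers, against 9.04, 9.14, 8.83, 9.55 and 8.99 in Control livers. HMB 5 lay above Control 3 and the other 4 HMB animals below every Control, with a log2 difference of -0.50 ± 0.15 that did not pass (SE, n = 5 per group, limma adjusted p = 0.0857). The difference of Psmb9, counterpart of Psmb6, was -0.41 (limma adjusted p = 0.165), and Control 4 at 9.21 lay far above the other Controls, which were at 8.16 to 8.45. Psmb10, counterpart of Psmb7, had -0.12 (limma adjusted p = 0.495).

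The change of Psmb8 relative to Psmb5 was tested within animals, a test chosen after the values were seen and with the low Psmb8 already known, so that its p is no independent evidence. Psmb8 minus Psmb5 differed by -0.47, at -2.35 ± 0.29 in HMB and -1.88 ± 0.32 in Control livers (SD, n = 5 each; exact two-sided permutation p = 0.0159, adjusted p = 0.0317 over 2 pairs, where 0.00794 is the smallest p that 252 assignments allow). The groups overlapped, and after cyclic loess normalization the adjusted exact permutation p was 0.0794. It was 0.0635 without Control 4, when the difference was -0.35. Psmb10 minus Psmb7 differed by -0.22 (exact two-sided permutation p = 0.0714, adjusted p = 0.0714). Immune cells are rich in these subunits, and in bulk liver fewer such cells and less RNA per cell cannot be told apart. Of 6 lymphocyte markers 0 passed, with list means of 3.95 to 4.30 in HMB and 3.73 to 4.17 in Control livers. At an unadjusted p under 0.05 were 3 of the 6, Cd3e, Cd3d and Nkg7, higher in HMB by 0.25, 0.24 and 0.36. All 3 were among the dimmest 25% of genes. Of those dim genes 21.2% were below 0 and 20.6% had an unadjusted p under 0.05, with a median log2 difference of 0.11. Dim genes were thus mostly higher in HMB, and whether these 3 markers reflect lymphocyte number was not tested. Of 5 macrophage markers 0 passed, with 7.13 to 7.86 in HMB and 6.39 to 8.25 in Control livers. The part of immune cells in the Psmb8 values was not tested.

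**Figure D5:**
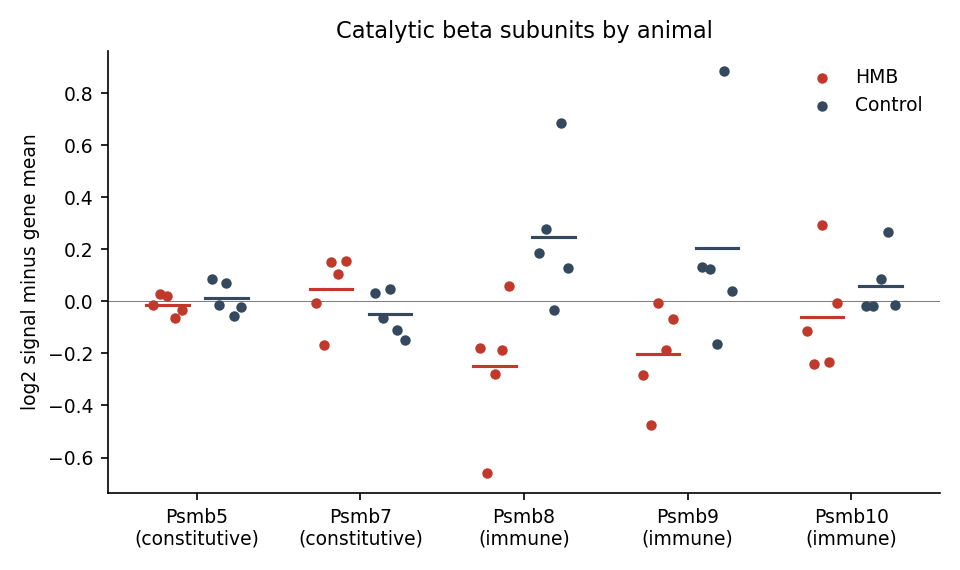
Log2 signal minus the gene's mean over 10 arrays (vertical axis) for the constitutive Psmb5 and Psmb7 and the immune Psmb8, Psmb9 and Psmb10, with each animal a point and each group's mean a line. Psmb5 points stay within 0.1 of 0 in both groups, while Psmb8 group means are 0.50 apart with HMB below.

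Other genes of the ubiquitin pathway were counted in lists by role. Of 17 measured partners of the proteasome 0 passed and 13 were below 0, with a median log2 difference of -0.078. Over all genes 53.5% were below 0, and over the brightest 25% of genes 71.2%, with a median of -0.072. Ubqln1, which carries ubiquitinated proteins to the proteasome, had -0.24 (limma adjusted p = 0.0932), with all 5 HMB animals below all Controls, and Txnl1, a thioredoxin-like protein of the regulatory particle, had 0.21 (limma adjusted p = 0.129). Pomp, the maturation factor of the core, had -0.024, and Adrm1, a ubiquitin receptor of the base, 0.25 (limma adjusted p = 0.836 and 0.318).

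Among 16 genes listed for the control of proteasome genes and the processing of Nfe2l1, 1 fell and 15 did not pass. It was Stat3, a transcription factor of cytokine signalling, with 8.35, 8.30, 8.03, 8.13 and 8.58 in HMB livers, against 8.59, 9.003, 8.76, 8.97 and 9.04 in Control livers. All HMB animals were below all Controls, though HMB 5 only just, and the log2 difference of Stat3 was -0.59 ± 0.12 (SE, limma adjusted p = 0.0384). The call of Stat3 was lost in 13 of 21 alternative settings, with log2 differences from -0.67 to -0.49 there. They were cyclic loess, quantile normalization, HMB 1 counted as a Control, the poly-A covariate (limma adjusted p = 0.196), the fit without HMB 3 to 5 (limma adjusted p = 0.281), and the fits that left out 1 animal, other than HMB 1 or Control 1 (limma adjusted p from 0.0583 to 0.0938). The 13 include the 6 settings that called 0 of all genes and the 2 that called only 1. Losing the call there shows little about Stat3 itself. Its unadjusted limma p over the 13 ran from 8.8e-05 to 0.0043, against 0.00029 with all animals as titled. Nfe2l1 itself had 7.86, 8.04, 7.80, 8.19 and 7.87 in HMB livers, against 7.97, 7.88, 8.01, 8.09 and 7.91 in Control livers. The groups overlapped, with a log2 difference of -0.022 and a 95% interval from -0.21 to 0.16 (limma adjusted p = 0.889). Ufd1, a cofactor of the ATPase Vcp that extracts ubiquitinated proteins, had -0.27 (limma adjusted p = 0.0850), and Nfe2l2, the antioxidant response factor, -0.40 (limma adjusted p = 0.130). The listed NF-Y subunits Nfyb and Nfya had -0.57 and -0.12 (limma adjusted p = 0.102 and 0.477), and a link to the members was not tested.

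Of 5 activating enzymes 0 passed, with Uba6 at -0.21 and Uba2, of the SUMO pathway, at -0.23 (limma adjusted p = 0.154 and 0.165). Of 24 ubiquitin-conjugating enzymes 0 passed and 20 were below 0, with a median of -0.15. Ube2s, which extends chains on mitotic substrates, had -0.46 and Cdc34 had -0.28 (limma adjusted p = 0.0978 and 0.128). Of 20 deubiquitinases 0 passed and 16 were below 0, with a median of -0.12, Otub2 at -0.52 and Usp15 at -0.33 (limma adjusted p = 0.0733 and 0.0873). Below 0 were thus 83.3% of the conjugating enzymes and 80% of the deubiquitinases. The share was 53.5% of all genes, 71.2% of the brightest 25% by mean signal, and 77.0% of the next 25%, whose median was -0.12. The conjugating enzymes had 6 and the deubiquitinases 5 members at an unadjusted p under 0.05, 25% of each list, against 24.9% of all genes. The other lists had 3 of 17 partners, 6 of 16 genes listed for control and 2 of 5 activating enzymes at that level.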

How the data were processed

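Liver RNA of 10 rats, 5 HMB and 5 Control, was measured on Affymetrix rat arrays with a biotin label. The authors deposited log2 signals of 31099 probe sets, made with RMA per the submitters' processing notes (version not given in the sources used here), and they were used unchanged. The 57 control probe sets were left out of tests. Of the rest, 20826 named 1 gene, 436 several and 9780 none, and current symbols were taken by gene identifier from the RefSeq table of GRCr8 (20758 matched).

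Members, lists and alternatives were chosen with earlier results of these data known. Named members were those called, those whose groups do not overlap, the 3 largest differences each way, the 2 smallest p of each role and the catalytic subunits, and of other lists the called genes and the 2 smallest p. Pomp, Adrm1, Nfe2l1, Nfe2l2, Nfya, Nfyb and the cell markers were named in addition, with values seen. So were some members such as Psma5, Psmc1, Psmd7, Psmd9, Psmd14, Psme1 and the Psmg genes. The fit, with lmFit and eBayes of limma 3.58.1 in R 4.3.3 at an adjusted p of 0.05 and no filter, was also tested on simulated data. Pairs were tested by exact permutation with scipy 1.17.1, and figures drawn with matplotlib 3.10.9. The number of arrays limits the precision. Alternatives were other scalings, a filter on the lowest 25% of means, other priors, weights and probe sets, the poly-A covariate, HMB 1 as a Control, and animals left out.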

Additional observations from a re-analysis of the deposited data

Results flagged for a closer look

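In 4 of 94 groups of 5 values examined, 1 animal stood apart from the other 4 of its group by Dixon's 95% criterion, and chance gives about 1 in 20 such groups. Psma4 was at 9.64 in HMB 5, and the other HMB animals were at 9.79 to 9.84. Psmb2 was at 10.01 in Control 3, and the other Controls were at 10.12 to 10.16. Psmb3 was at 9.72 in Control 1, and the other Controls were at 9.57 to 9.61. Psme4, whose groups did not overlap, was at 9.24 in Control 3, and the other Controls were at 9.07 to 9.09.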

How the results depend on the processing

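In all 21 alternative settings limma called 0 of the 43 members, and between 0 and 8 members had an unadjusted p under 0.05. In 6 of these settings 0 of all genes were called and in 2 only 1, so that 0 members there shows nothing, and in the other 13 between 15 and 1014 genes were called. The medians of log2 difference lay near 0 and moved with the scaling. With equal array medians they were -0.10 over all members, -0.11 for the core and -0.093 for the regulatory particle. Under cyclic loess they were 0.014 over all members, 0.0025 for the core and 0.025 for the regulatory particle, and under quantile normalization 0.0092, -0.016 and 0.016. Adjusted for the poly-A signal, the core median was 0.012. Without HMB 3 to HMB 5 it was 0.0050, and 0.0023 over all members. The cause was not tested. Leaving out 1 animal at a time gave medians from -0.083 to -0.046 for all members, from -0.092 to -0.046 for the core and from -0.083 to -0.035 for the regulatory particle, and core minus regulatory from -0.015 to 0.0050. The difference of a single member changed sign and moved by more than its SD in 34 refits and did not in the other 869, and none was called.

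Psmb8 minus Psmb5 was -0.42 under cyclic loess, -0.39 under quantile normalization, -0.42 with HMB 1 counted as a Control, -0.66 without HMB 3 to HMB 5 and -0.35 without HMB 1 and HMB 2, with adjusted exact permutation p from 0.0794 to 0.143. Without single animals it ran from -0.56 to -0.35 (adjusted exact permutation p 0.0317 or 0.0635), and Psmb10 minus Psmb7 ran from -0.28 to -0.15, at 0.0317 without HMB 3. The call of Stat3 was lost in 13 settings and kept in 8, and the 13 include the 6 that called 0 of all genes and the 2 that called only 1. The settings for Stat3 and the pairs were added after the values were seen, and fewer animals allow fewer assignments. No paired analysis was possible because the replicate numbers follow the order of deposition and pair no animals.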
